A study of Mus musculus with 15 samples.

Results

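Genes of the endoplasmic reticulum (ER) were followed in whole mouse liver across pregnancy. The set holds 41 genes of protein folding, ER stress signalling, ER-associated degradation and the first steps of secretion, chosen by gene name from the 21702 genes of the count table. It comprises 15 chaperones and oxidoreductases, 5 stress sensors with their transcription factors, 5 targets of the PERK and ATF4 branch, 7 degradation genes, 7 genes of the translocon and signal peptidase and 2 of the COPII coat. The animals were wild-type females of 8 to 14 weeks, labelled C57BL/6 and given in the methods as C57BL/6N, all injected in a tail vein with an adeno-associated virus of serotype 8 (AAV8). The virus either was empty (AAV8-null) or carried p21, an inhibitor of cyclin-dependent kinases, under the TBG promoter, which is active in hepatocytes and not in the other liver cells. The 5 groups of 3 mice were non-pregnant (NP) AAV8-null, AAV8-null at 8 and at 16 days post-coitum (dpc), and AAV8-p21 at 8 and at 16 dpc, so that every mouse received a virus and no NP AAV8-p21 mice were among them. The virus was given before mating, and the p21 effect was therefore compared only between pregnant mice. Each library is the liver of 1 mouse in bulk, in which fewer cells of a type and less RNA per cell cannot be told apart.

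Secreted and membrane proteins enter the ER through the Sec61 translocon, are folded by chaperones such as BiP and by disulfide isomerases, and leave in COPII vesicles. When unfolded protein accumulates, 3 sensors in the ER membrane respond. IRE1 (Ern1) splices the mRNA of Xbp1, ATF6 (Atf6) is cut to release a transcription factor, and PERK (Eif2ak3) slows translation and raises ATF4. XBP1 and ATF6 turn on chaperones and degradation genes, and ATF4 turns on amino acid and stress genes such as Ddit3, which encodes CHOP. Hepatocytes secrete most plasma proteins and are rich in rough ER, and their chaperone genes are known to follow feeding and the time of day.

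Total counts lay between 12280709 and 17615185 per library, and all 41 genes of the set were among the 12172 genes that passed the filter on low counts. Levels are given as CPM, the counts of a gene relative to the library total after scaling by TMM factors of 0.6815 to 1.253. The factors were low at 16 dpc in both virus groups, where Alb took 20.5% to 27.8% of all counts, against 7.9% to 12.9% in the other libraries. Levels at 16 dpc are therefore relative to the bulk of genes and not to all RNA. Cdkn1a, the gene for p21 carried by the virus, lay at 347 to 1663 CPM in the AAV8-p21 libraries and at 3.28 to 127 CPM in the AAV8-null libraries. Hepatocyte markers, Alb first among them, summed to between 75065 and 435345 CPM per library. Of the other secretory cell types, the 7 markers of B and plasma cells summed to at most 11.1 CPM, with Tnfrsf17 at 0 in every library. The 6 pancreatic acinar markers summed to at most 23.6 CPM, with Pnlip and Try4 at 0 throughout.

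The promoter windows of the set, 250 bases before to 50 bases after the RefSeq start on GRCm38.p6, were available for 34 of the 41 genes. They were searched on both strands for the ER stress response element (ERSE), which is CCAAT and CCACG with any 9 bases between them and is the site through which ATF6 and XBP1 are known to act. ERSE letters stood in the windows of 9 of the 34 genes, against 0.137% of all 27025 genes with a window. The element was first defined in promoters of chaperones of this kind, so the high share is not independent of the choice of genes. They are shown because Derl3 and Creld2, which were among the 3 genes of the set that varied most between livers, carry them. Each is printed 5′ to 3′ on the strand of its gene with the element in capitals, which reads in reverse complement where it starts with CGTGG. These sequences were chosen after the values were seen.
Hspa5, chr2:34772020-34772048, plus strand, overlapping an exon of Hspa5 in GENCODE M21: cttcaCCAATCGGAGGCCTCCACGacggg
Creld2, chr15:88819515-88819543, plus strand: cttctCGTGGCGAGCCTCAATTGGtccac
Derl3, chr10:75893237-75893265, plus strand: tctacCGTGGGACTTCCCCATTGGctagc
Syvn1, chr19:6046527-6046555, plus strand: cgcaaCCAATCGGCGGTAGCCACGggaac
Calr, chr8:84847070-84847098, minus strand: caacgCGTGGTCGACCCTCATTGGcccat
Pdia6, chr12:17266486-17266514, plus strand: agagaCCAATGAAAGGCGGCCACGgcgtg
Hsp90b1, nearer site, chr10:86705528-86705556, minus strand: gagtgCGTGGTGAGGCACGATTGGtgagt
Hsp90b1, farther site, chr10:86705633-86705661, minus strand: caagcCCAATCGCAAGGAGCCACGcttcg
Dnajc3, chr14:118937822-118937850, plus strand: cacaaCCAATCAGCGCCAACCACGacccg
Canx, chr11:50325795-50325823, minus strand: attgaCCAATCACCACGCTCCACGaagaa
Apart from that of Hspa5, these stretches overlap no exon of GENCODE M21. The elements of these 9 genes end between 26 and 194 bases before the RefSeq start. Syvn1 has the nearest and Hsp90b1 the farthest.

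Herpud1, whose protein brings misfolded substrates to the degradation complex, was the one gene with letters of both branches. A second ER element, ERSE-II (ATTGGNCCACG), stood in the windows of Herpud1 and Dnajb11, against 0.0444% of all genes. The composite site of C/EBP and ATF factors (TGATGNAA), through which ATF4 is known to act, stood in those of Herpud1, Asns, Chac1 and Trib3, against 4.51% of all genes. The 250 bases before the RefSeq start of Herpud1 are chr8:94386179-94386428 on the plus strand and overlap no exon of GENCODE M21. The first run of capitals is the C/EBP-ATF site on the other strand, and the second is ERSE-II.
Herpud1: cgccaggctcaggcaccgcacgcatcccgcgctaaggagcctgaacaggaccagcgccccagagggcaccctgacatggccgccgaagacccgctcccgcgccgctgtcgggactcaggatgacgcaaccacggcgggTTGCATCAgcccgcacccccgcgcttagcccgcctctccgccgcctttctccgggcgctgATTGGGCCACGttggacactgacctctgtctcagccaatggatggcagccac
For the ATF4 targets the sites are shown with 11 bases on either side.
Asns, chr6:7693214-7693243, minus strand, overlapping an exon of Asns: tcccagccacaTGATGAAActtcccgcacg
Chac1, chr2:119351038-119351067, plus strand: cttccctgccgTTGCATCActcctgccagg
Trib3, chr2:152344028-152344057, minus strand, overlapping an exon of Trib3 at its end and not at the capitals: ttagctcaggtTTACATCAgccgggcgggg
No window of Atf4, Eif2ak3 or P4hb, the genes that pass the tests described next, holds any of these letters.

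Within every group, 1 liver stood above the other 2 in most of the set. In NP AAV8-null mice, replicate 1 was the highest of the 3 libraries in 38 of the 41 genes, against 43.2% of all genes tested. In AAV8-null mice, replicate 2 at 8 dpc was highest in 35 and replicate 3 at 16 dpc in 29 of the 41, against 31.3% and 29.6% of all genes tested. In AAV8-p21 mice, replicate 2 at 8 dpc was highest in 29 and replicate c at 16 dpc in 25, against 29.2% and 38.2%. The 41 genes together took 1.57%, 0.675% and 0.622% of all counts in the 3 NP livers. Their share was 1.25% to 1.57% in the 5 livers named and 0.559% to 0.867% in the other 10. Same-numbered livers are different mice.

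**Figure D1:**
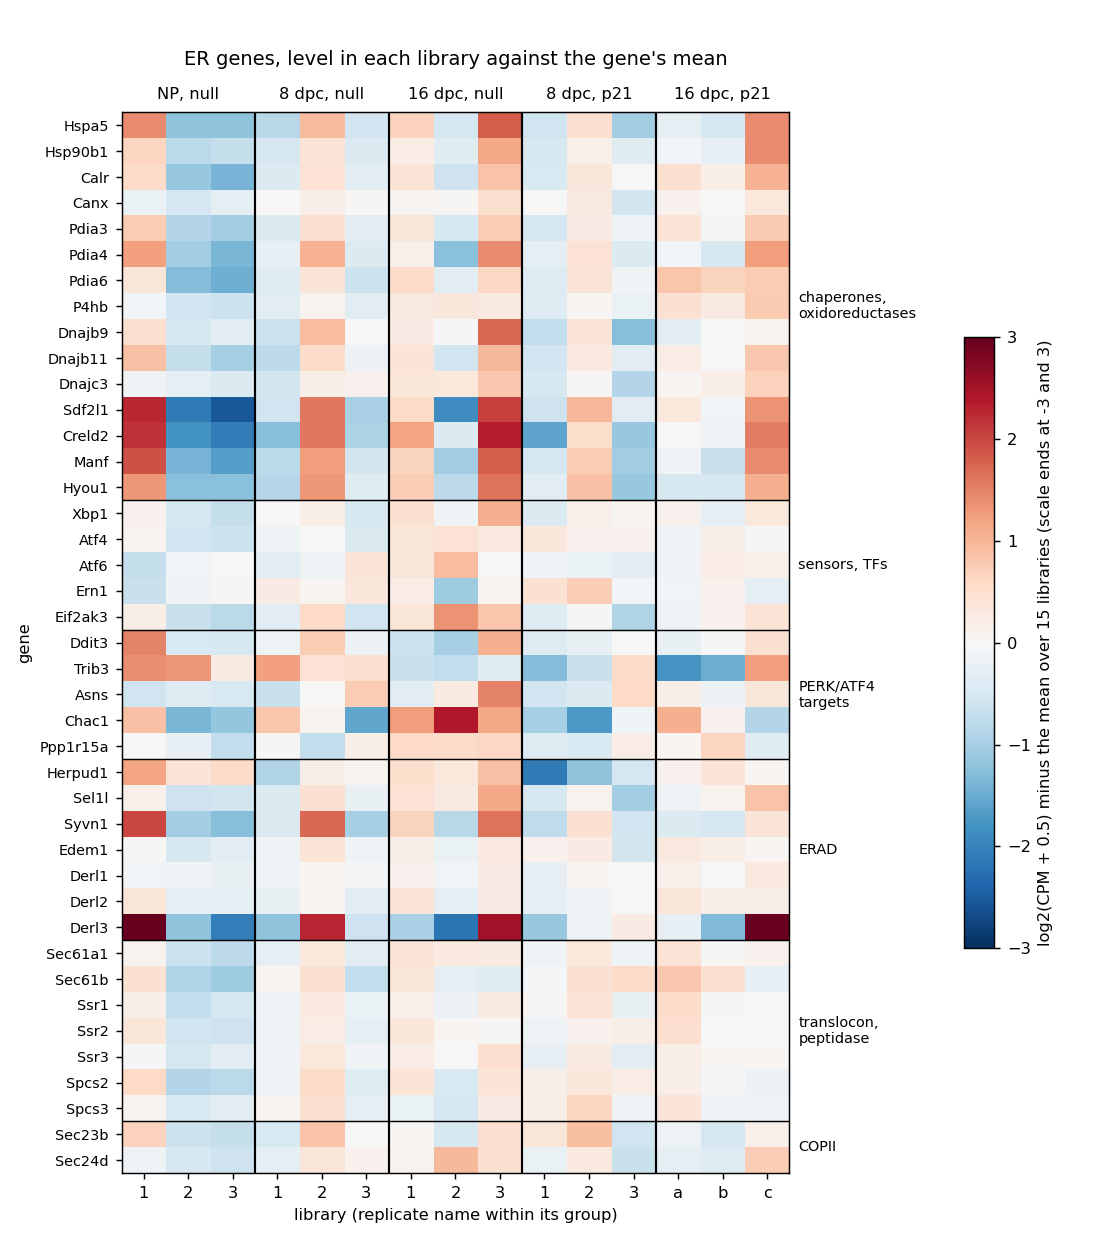
Each row is 1 of the 41 genes, ordered by role, and each column 1 library. Colour gives log2(CPM + 0.5) minus the mean of the gene over the 15 libraries, with red above and blue below, and the scale ends at -3 and 3. NP replicate 1, 8 dpc replicates 2, 16 dpc AAV8-null replicate 3 and 16 dpc AAV8-p21 replicate c are red through most chaperone rows.

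The single genes of widest spread were Derl3, Sdf2l1 and Creld2, and Hspa5 shows the same pattern at a high level. Hspa5 (chr2:34771970-34777547, plus strand) encodes BiP, the main HSP70 chaperone of the ER. Its level was 2814, 457 and 458 CPM in the 3 NP livers, 599.6, 2037 and 708 CPM at 8 dpc and 1708, 741 and 3710.4 CPM at 16 dpc in AAV8-null mice. In AAV8-p21 mice it was 700.4, 1511 and 513 CPM at 8 dpc and 882, 743 and 2859 CPM at 16 dpc. The groups thus overlapped throughout, and the range within NP livers covered most of the range of the study. Creld2, a disulfide isomerase induced by ER stress, was at 244, 15.3 and 12.4 CPM in NP livers and at 123, 40.9 and 281 CPM in AAV8-null livers at 16 dpc. Sdf2l1, a partner of BiP, was at 131, 5.78 and 4.19 CPM in NP livers. The high liver was the same one for each of these genes. Derl3, a channel component of the degradation machinery that is strongly induced by XBP1, was at 31.6, 1.16 and 0.419 CPM in NP livers and at 1.43, 0.333 and 21.5 CPM in AAV8-null livers at 16 dpc. Its lowest library held 4 counts, so its low values carry large counting error.

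The spread was measured as the SD of log2(CPM + 0.5) within groups, pooled over the 5 groups. Its median was 0.51 over the 41 genes and 0.32 over all genes tested. It was above 1 in 9 of the 41 genes, against 1.39% of all genes tested. These were Derl3 (2.12), Sdf2l1 (1.69), Creld2 (1.56), Manf (1.36), Syvn1 (1.23), Hyou1 (1.16), Hspa5 (1.12), Pdia4 (1.05) and Chac1 (1.01). All but Chac1, which degrades glutathione and is an ATF4 target, are ER chaperones, secreted folding factors or degradation genes. By role, the median was 0.70 for the chaperones and oxidoreductases, 0.77 for the PERK and ATF4 targets and 0.49 for the degradation genes. It was 0.41 for the sensors and their transcription factors, 0.54 for the 2 COPII genes and 0.34 for the translocon and signal peptidase. Among the PERK and ATF4 targets, the lowest library held 2 counts for Asns, 4 for Chac1, 10 for Trib3 and 28 for Ddit3. Their spread therefore includes counting error. The tightest were Derl1 (0.13), Atf4 (0.23), P4hb (0.24), Canx (0.24) and Ssr3 (0.24). Among genes with a promoter window, the median was 0.70 for the 11 with ERSE or ERSE-II and 0.49 for the 23 without, but the ranges overlapped. Canx carries ERSE letters and varied little (0.24), while Sdf2l1 and Pdia4 varied widely without them. The 21 secreted plasma proteins of a list written for comparison, which are the cargo of the pathway, had a median SD of 0.31, and 16 cytosolic chaperones one of 0.47.

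**Figure D2:**
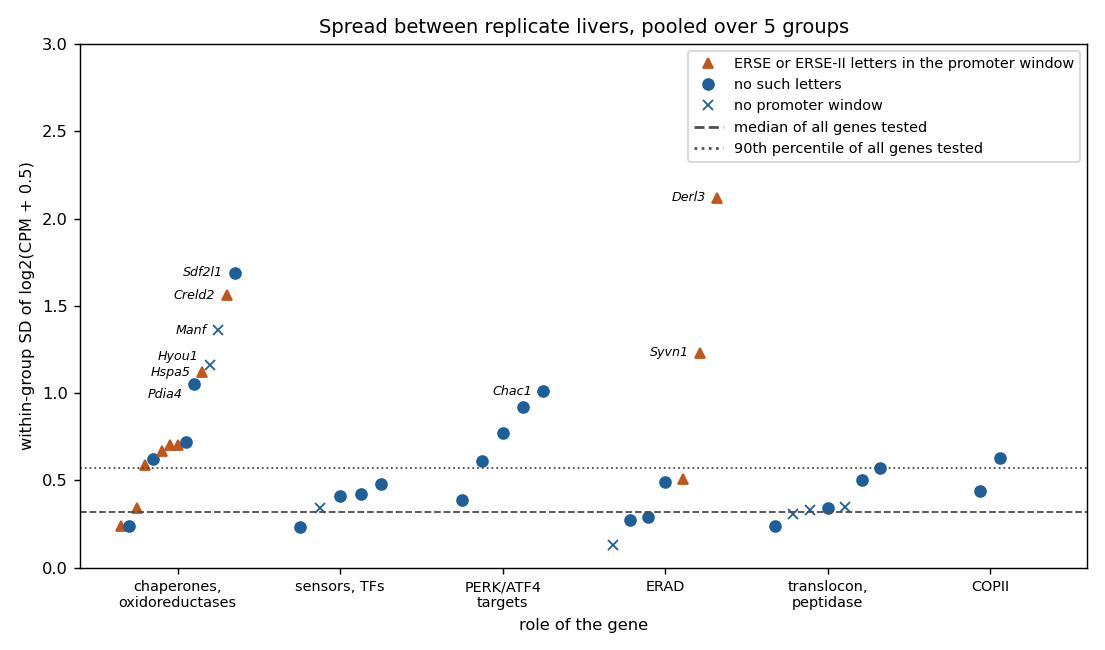
Each point is 1 gene of the set, placed by role, with the within-group SD of log2(CPM + 0.5) on the y axis. Triangles carry ERSE or ERSE-II letters, and the lines mark the median (0.32) and the 90th percentile (0.57) of all genes tested. Chaperones, degradation genes and Chac1 reach above 1, while the highest sensor is Eif2ak3 (0.48).

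Clock genes and a cytosolic chaperone also differed between livers of a group. Arntl, a clock gene whose rhythm is opposite to that of Dbp, was at 17.2, 1.7 and 1.4 CPM in the 3 NP livers, and Dbp was at 5.68, 86.2 and 58 CPM. The NP liver with high ER genes thus had high Arntl and low Dbp, unlike the other 2. At 8 dpc Arntl was at 24, 25.4 and 8.06 CPM with AAV8-null and at 31.4, 21.4 and 2.45 CPM with AAV8-p21. At 16 dpc the AAV8-null livers had Arntl at 23.3, 10.2 and 19.8 CPM, and the AAV8-p21 livers had it at 0.511, 0.581 and 2.91 CPM. The liver with high ER genes had the highest Arntl in 3 of the 5 groups. Arntl was thus lower without overlap in AAV8-p21 livers at 16 dpc, as were 7.02% of all genes tested, and its part in the p21 comparisons at that stage was not tested. NP replicates 2 and 3 likewise had lower Arntl and higher Dbp than all 3 AAV8-null livers at 16 dpc (Dbp at 1.69, 11.4 and 1.33 CPM), whereas NP replicate 1 lay within their range in both genes. The comparison of 16 dpc with NP, and more so without NP replicate 1, thus sets livers of different clock gene levels against each other, and the part of this was not tested. The cytosolic chaperone Hspa8 was at 1692, 711 and 685 CPM in NP livers, and it was highest in the liver with high ER genes in 4 of the 5 groups, the exception being AAV8-p21 at 8 dpc. The B and plasma cell markers summed to 5.47 CPM in NP replicate 1 and to 3.08 and 3.53 CPM in the other NP livers. In the 4 other groups the highest sum of these markers, between 4.89 and 11.1 CPM, was not in the liver with high ER genes. The part of these differences in the spread of the ER genes was not tested.

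Levels per length differed widely by role. Over all 15 libraries, P4hb, a disulfide isomerase that also serves as a subunit of prolyl hydroxylase and of the triglyceride transfer protein, had the highest mean level at 622 CPM per kilobase of exon. Hspa5 (322), Hsp90b1 (298), Calr (269.6), Herpud1 (169) and Pdia3 (162) followed on the same scale. By group mean, Herpud1 lay above Pdia3 in NP (251 against 137) and 16 dpc AAV8-null mice (223 against 182), and below it in the other groups. The sensors stood low, with Atf6 at 9.77, Ern1 at 5.04 and Eif2ak3 at 3.36 CPM per kilobase. The lowest were Trib3 (2.51), Chac1 (1.75) and Asns (0.208), 3 targets of ATF4. Hspa5, Hsp90b1 and Calr are neighbours in this order whose values overlapped within every group, whereas P4hb lay above them per kilobase in most livers and varied far less.

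Late pregnancy was compared with the non-pregnant state in AAV8-null mice. Relative to the bulk of genes, the set lay higher at 16 dpc. Its log2 fold changes had a median of 0.54, against -0.028 over all genes tested, and 37 of 41 were above 0. With totals alone as the scale the median was -0.11, so that its direction rests on the scaling. With edgeR's quasi-likelihood test and an adjusted p under 0.05, 2 of the 41 genes (4.88%) were called, both higher, while 6.52% of all genes tested were called in either direction. The share of the set called in either direction was therefore no higher than the background in this fit. Of all genes tested, 451 were called higher. Other fits, given below, called between 0 and 19 of the set. At an unadjusted p under 0.05, 14 of the 41 were higher, where 10.4% of all genes tested were. In the other direction 1 of the 41 was lower, where 1310 of the 12172 genes tested were. All 3 libraries at 16 dpc lay above all 3 NP libraries in 12 of the 41 genes, against 12.1% of all genes tested, and below them in 1, against 12.5%. Marker sums of other cell types also differed without overlap. From NP to 16 dpc, those of neutrophils went from 0.304 to 1.66 CPM to 4.25 to 22.4 CPM, those of erythroid cells from 45.4 to 90.2 CPM to 103 to 153 CPM, and those of B and plasma cells from 3.08 to 5.47 CPM to 5.58 to 5.97 CPM. Bile duct markers went from 19.7 to 31.4 CPM to 8.41 to 17.3 CPM, and T and NK cell markers from 1.77 to 3.46 CPM to 0.623 to 1.69 CPM. Their part in the result was not tested.

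The 2 called genes belong to the PERK branch. Eif2ak3 (PERK, chr6:70844515-70905245, plus strand), the sensor kinase that phosphorylates the initiation factor eIF2α, was at 21, 11.4 and 10.2 CPM in NP livers and at 23.9, 47.5 and 33.1 CPM at 16 dpc. Its log2 fold change was 1.30 (SE 0.37, adjusted p = 0.0489, edgeR). Atf4 (chr15:80255184-80257541, plus strand), the transcription factor whose translation PERK raises, was at 91.8, 57.3 and 54.6 CPM in NP livers and at 111, 117 and 106 CPM at 16 dpc. Its log2 fold change was 0.72 (SE 0.20, adjusted p = 0.0495). The groups did not overlap for either gene. The call of Eif2ak3 was lost without NP replicate 2 or 3 or 16 dpc replicate 2 or 3 (adjusted p of 0.0953 to 0.192). The call of Atf4 was lost without any 1 of these 4 livers or 16 dpc replicate 1 (0.089 to 0.185), and over every alternative run the adjusted p ran from 0.0041 to 0.192 for Eif2ak3 and from 0.000878 to 0.858 for Atf4. With totals alone as the scale, which moves the median of all genes to -0.70, neither was called, with log2 fold changes of 0.62 for Eif2ak3 and 0.04 for Atf4, and the median of the set was -0.11, which is 0.59 above that of all genes.

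The main edgeR fit called none of the 5 targets of this branch in the set, and their log2 fold changes had both signs. Calls among other ATF4 targets are given with the related lists below. Ppp1r15a, which encodes GADD34 and restores translation, was at 12.3, 10.4 and 7.34 CPM in NP livers and at 19.1, 18.7 and 19.4 CPM at 16 dpc (log2 fold change 0.93, SE 0.31, adjusted p = 0.0926). Chac1 was at 3.88, 0.426 and 0.559 CPM in NP livers and at 5.17, 12.2 and 4.72 CPM at 16 dpc (2.19, SE 0.90, adjusted p = 0.179). Trib3, a pseudokinase that dampens ATF4 and AKT signalling, lay the other way, at 11.6, 11.1 and 5.03 CPM in NP livers and at 2.41, 2.25 and 3.11 CPM at 16 dpc (-1.83, SE 0.76, adjusted p = 0.179). None of these 3 overlapped between the groups. DESeq2 on the compared groups alone called all 3, DESeq2 on all libraries called Ppp1r15a, and voom with sample weights called Ppp1r15a and Chac1. edgeR called Trib3 lower on the compared groups alone, where 3.49% of all genes were called. It also did so with totals alone as the scale, where 50.5% were. Asns, asparagine synthetase, had the highest log2 fold change of the set (2.35, SE 0.93, adjusted p = 0.160) and did not overlap between the groups either, but it was at 2.22 CPM or less in every library and held as few as 2 counts. Ddit3 was at 15.4, 3.59 and 3.56 CPM in NP livers and at 3.12, 2.33 and 11.3 CPM at 16 dpc, with a log2 fold change of -0.43 (SE 0.60) that turned to 0.64 without NP replicate 1 and to 0.37 in voom with sample weights. Ddit3 shares exon sequence with a second gene entry of the same name, which held no counts, and overlaps Mars1 on the opposite strand, so its level is uncertain.

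Of the remaining sensors and transcription factors, Xbp1 was at 216, 137 and 122 CPM in NP livers and at 272, 183 and 423 CPM at 16 dpc (0.89, SE 0.31, adjusted p = 0.112). DESeq2 did not call Xbp1, and voom with sample weights called it higher. Gene counts do not separate its spliced from its unspliced form. Atf6 had a log2 fold change of 0.71 (SE 0.26, adjusted p = 0.133) and Ern1 one of 0.07 (SE 0.30, adjusted p = 0.934). Atf6 ran against the chaperones in NP livers, with 52.7, 82.9 and 87.4 CPM, and at 16 dpc was at 112, 167 and 86.2 CPM.

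All 15 chaperones and oxidoreductases had a log2 fold change above 0 at 16 dpc, with a median of 0.69. edgeR called none of them, DESeq2 in both forms called P4hb and Dnajc3, and voom with sample weights called 7 (Pdia6, P4hb, Calr, Canx, Dnajc3, Creld2 and Pdia3). P4hb (chr11:120560298-120573253, minus strand) was at 1630.0, 1146 and 1092 CPM in NP livers and at 2058, 2179.6 and 2067 CPM at 16 dpc, without overlap (0.70, SE 0.23, adjusted p = 0.0811). Canx (0.54, SE 0.21) and Dnajc3 (0.79, SE 0.27), a membrane chaperone of glycoproteins and an inhibitor of PERK, did not overlap between the groups either, with adjusted p of 0.159 and 0.100. Hspa5 had a log2 fold change of 0.72 with an SE of 0.80 (adjusted p = 0.651), and without 16 dpc replicate 3 it was -0.02. The estimate for Creld2 was 0.71 (SE 1.08) and that for Sdf2l1 0.19 (SE 1.13). For these strongly varying chaperones, differences of the size estimated were not detectable with 3 mice a group.

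Among the translocon and signal peptidase genes, all 7 had a log2 fold change above 0 (median 0.36). edgeR and DESeq2 called none of them, and voom with sample weights called 5 (Sec61a1, Ssr3, Spcs2, Ssr2 and Ssr1). Sec61a1, the pore of the translocon, was at 187, 110.2 and 101 CPM in NP livers and at 226, 212 and 209.6 CPM at 16 dpc (0.70, SE 0.25, adjusted p = 0.121). Ssr3, a subunit of the TRAP complex beside the translocon, did not overlap between the groups (0.55, SE 0.21, adjusted p = 0.153). Of the COPII genes, Sec24d, a cargo adaptor, was at 69.9, 56 and 50.7 CPM in NP livers and at 83.8, 152 and 107 CPM at 16 dpc (0.96, SE 0.33, adjusted p = 0.107). DESeq2 on the compared groups alone and voom with sample weights called Sec24d higher. Sec23b had a log2 fold change of 0.16 (SE 0.45). The 7 degradation genes had a median of 0.20, and 5 were above 0. Sel1l, the scaffold of the HRD1 ligase, was at 198, 115 and 121 CPM in NP livers and at 239, 215 and 389 CPM at 16 dpc (0.96, SE 0.37, adjusted p = 0.148). DESeq2 did not call Sel1l, and voom with sample weights called it higher. Syvn1, the ligase itself, was at 364, 43.7 and 37.1 CPM in NP livers and at 144, 50.8 and 279.8 CPM at 16 dpc (0.09, SE 0.86).

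NP replicate 1 set much of this comparison. Without it, the median log2 fold change of the set was 1.10 in place of 0.54, and 7 genes were called, all higher. These were Atf4 (1.0), Pdia6 (1.74), Sec61a1 (1.03), Eif2ak3 (1.69), P4hb (0.91), Chac1 (3.89) and Calr (1.59), where 5.91% of all genes tested were called. Hspa5 then had a log2 fold change of 2.17 (SE 0.79, adjusted p = 0.129), and Creld2 and Sdf2l1 both of 3.42 (adjusted p of 0.0770 and 0.0823). Leaving out NP replicate 2 or 3, or 16 dpc replicate 2 or 3, left 0 genes called, and without 16 dpc replicate 3 the median fell to 0.22. limma's voom with sample weights gave NP replicate 1 a weight of 0.256 against 3.06 and 1.86 for the other NP livers, and called 19 of the 41 genes, all higher, where it called 13.2% of all genes tested. DESeq2 on all libraries called 5, all higher (Eif2ak3, Atf4, P4hb, Dnajc3 and Ppp1r15a), where 9.28% of all genes were called, and on the compared groups alone 6 higher and 1, Trib3, lower, where 7.54% of all genes were called. No label sets NP replicate 1 apart, and it was kept.

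**Figure D3:**
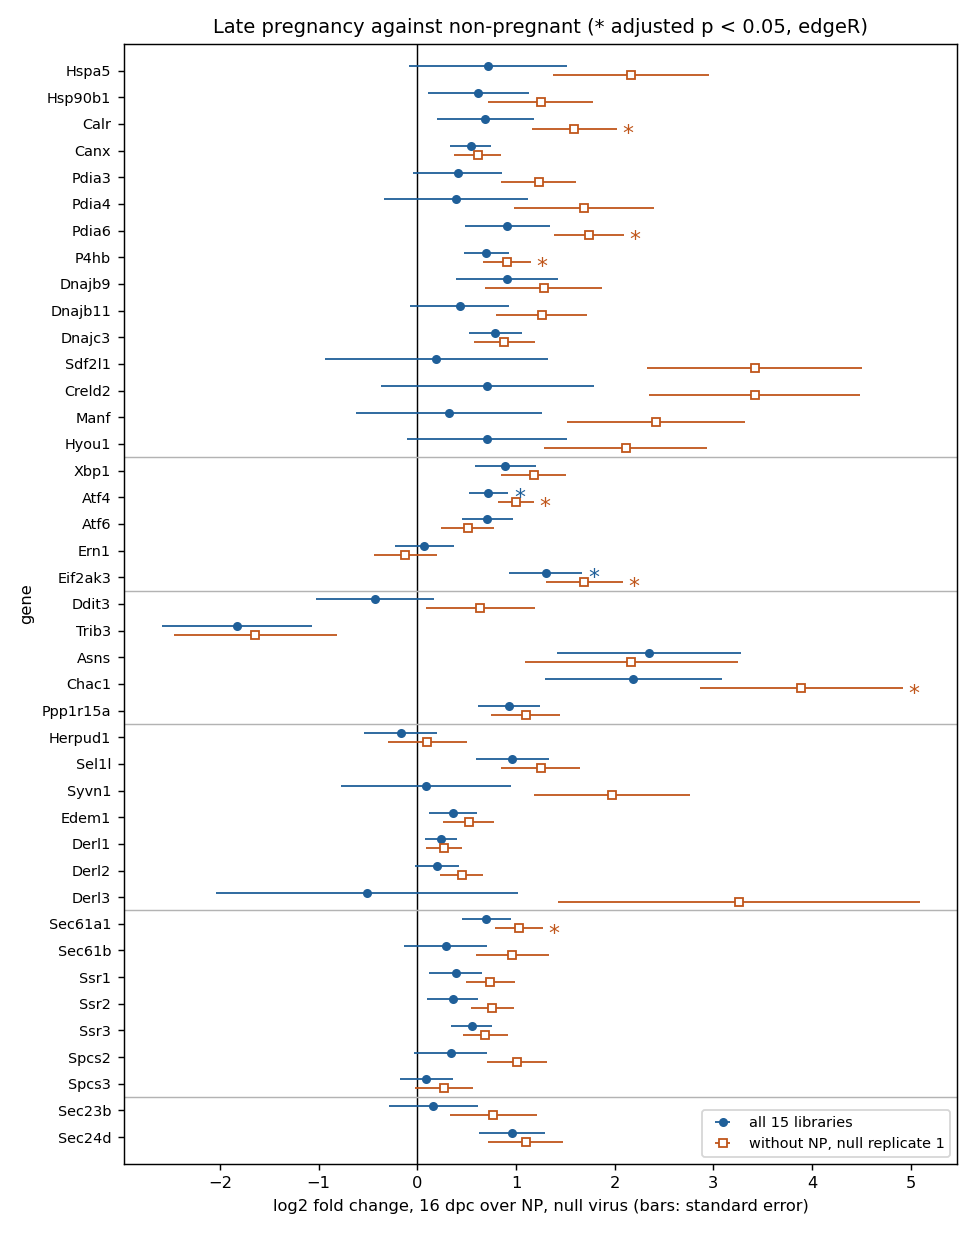
Log2 fold change of each gene at 16 dpc over NP in AAV8-null mice with its standard error, from all 15 libraries (filled circles) and without NP replicate 1 (open squares). Asterisks mark an adjusted p under 0.05 in edgeR, 2 genes with all libraries and 7 without that library. Derl3 moves most between the fits, from -0.51 to 3.26, and Hspa5 goes from 0.72 to 2.17.

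Mid pregnancy was compared with the NP state in the same way. edgeR called 0 of the 41 genes at 8 dpc, where 0.0% of all genes tested were called, and DESeq2 on all libraries and on the compared groups alone also called 0, where they called 0.574% and 0.582%. voom with sample weights called 9, all higher, where it called 15.2% of all genes tested. The median log2 fold change of the set was 0.23, and it was -0.02 without 8 dpc replicate 2, 0.02 without NP replicate 3, 0.10 without NP replicate 2 and 0.66 without NP replicate 1. No direction of the set can thus be read from it. An unadjusted p under 0.05 in edgeR was found for 6.6% of all genes tested and for 1 gene of the set. This was Herpud1 (chr8:94386438-94395377, plus strand), at 779.9, 462 and 512 CPM in NP livers and at 185, 397 and 364 CPM at 8 dpc, without overlap. Its log2 fold change was -0.89 (SE 0.37, adjusted p = 0.615). Herpud1 thus lay opposite to Canx (0.40, SE 0.21) and Ssr3 (0.33, SE 0.21), which were among the smallest p beside it. Ern1 (0.46, SE 0.30) and Asns (1.53, SE 0.94) completed the 5 smallest, with adjusted p between 0.849 and 0.948 for these 4.

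From 8 to 16 dpc in AAV8-null mice, edgeR called 0 of the 41 genes, where 6.87% of all genes tested were called. Atf4 (0.56, SE 0.20, adjusted p = 0.112), Eif2ak3 (0.94, SE 0.36, adjusted p = 0.134) and Ppp1r15a (0.73, SE 0.30, adjusted p = 0.169) had an unadjusted p under 0.05, where 22.7% of all genes tested had one. DESeq2 called 0 on all libraries, where 10.2% of all genes were called, and 1 on the compared groups alone (Trib3, lower), where 8.46% were. voom called 0, where 1707 of the 12172 genes tested were called. Dnajc3 (0.57, SE 0.27) and Chac1 (1.86, SE 0.88) came next. With totals alone as the scale, Atf4 was at -0.15 and Dnajc3 at -0.12, so the direction of these 2 rests on the scaling. The median of the set was 0.43, with 35 of 41 genes above 0, and with totals alone it was -0.26, so that the direction of the set rests on the scaling too. It was 0.07 without 16 dpc replicate 3, 0.24 and 0.26 without 8 dpc replicates 1 and 3, and 0.65 without 8 dpc replicate 2. Marker sums of other cell types differed without overlap. They were higher at 16 dpc for endothelial cells (177 to 238 CPM against 95.9 to 131 CPM), stellate cells and fibroblasts (188 to 255 against 97.7 to 158), erythroid cells (103 to 153 against 80.7 to 93.5) and B and plasma cells (5.58 to 5.97 against 4.11 to 4.89). Bile duct markers were lower (8.41 to 17.3 against 18 to 26.8). Their part was not tested.

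The effect of p21 was compared within each stage. At 16 dpc, edgeR called 0 of the 41 genes between AAV8-p21 and AAV8-null mice, where 0.0739% of all genes tested were called. No gene of the set had an unadjusted p under 0.05, where 9.77% of all genes tested had one. DESeq2 on all libraries, DESeq2 on the compared groups alone and voom also called 0, where they called 1.06%, 1.09% and 0.961% of all genes tested. The neutrophil markers were lower with p21 (sums of 2.04 to 4.07 CPM against 4.25 to 22.4 CPM) and the bile duct markers higher (19.6 to 43 CPM against 8.41 to 17.3 CPM), both without overlap. Hepatocyte markers were lower with p21, also without overlap (272423 to 305207 CPM against 310125 to 435345 CPM). The part of these markers was not tested. The median was -0.16, with 15 of 41 genes above 0, but its sign rested on single livers. It was 0.12 without AAV8-null replicate 3 and -0.34 without AAV8-p21 library c. All 3 AAV8-p21 libraries lay above all 3 AAV8-null libraries in 1 gene (Pdia6), against 6.65% of all genes tested, and below them in 2 (Chac1 and Atf4), against 7.02%. None of the 5 genes with the smallest p, given next, passed the test. Eif2ak3 was at 16.9, 20.1 and 24.5 CPM with p21 against 23.9, 47.5 and 33.1 CPM without (-0.76, SE 0.36, adjusted p = 0.517), and Atf4 at 79.3, 97.5 and 82.3 CPM against 111, 117 and 106 CPM (-0.37, SE 0.20, adjusted p = 0.578). Chac1 was at 4.51, 2.11 and 0.801 CPM against 5.17, 12.2 and 4.72 CPM (-1.58, SE 0.88, adjusted p = 0.585). Dnajb9, a cochaperone of BiP that restrains IRE1, was at 48.1, 59 and 63.8 CPM against 70.6, 57 and 198 CPM (-0.93, SE 0.52), and Xbp1 had a log2 fold change of -0.47 (SE 0.31). Hspa5 stood at -0.46 (SE 0.79) and, without AAV8-null replicate 3, at 0.29. Ddit3 stood at -0.02 (SE 0.61), which changed sign when AAV8-null replicate 3 or either of the AAV8-p21 libraries a and b was left out.

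At 8 dpc, edgeR called 0 of the 41 genes between AAV8-p21 and AAV8-null mice, where 0.0246% of all genes tested were called, and DESeq2 on all libraries, DESeq2 on the compared groups alone and voom also called 0, where they called 0.204%, 0.625% and 0.863%. The median was -0.12, and it was 0.25 without AAV8-null replicate 2 and -0.32 without AAV8-p21 replicate 2, so that 1 liver set its sign. Herpud1 alone had an unadjusted p under 0.05, where 5.18% of all genes tested had one. It was at 78.8, 149 and 245 CPM with p21 against 185, 397 and 364 CPM without, a log2 fold change of -1.0 (SE 0.37, adjusted p = 0.77). The 3 AAV8-p21 libraries at 8 dpc held 3 of the 4 lowest Herpud1 levels of the study. All 3 AAV8-p21 libraries lay above all 3 AAV8-null libraries in 1 gene, Atf4, against 5.52% of all genes tested, and below them in 0, against 4.49%. Atf4 was at 109, 94.6 and 93.3 CPM with p21 against 78.7, 84.7 and 63.6 CPM without (0.39, SE 0.20, adjusted p = 1.0). Trib3 (-1.15, SE 0.73), Chac1 (-1.26, SE 0.96) and Dnajc3 (-0.34, SE 0.27) had the next smallest p. Marker sums without overlap were lower with p21 for neutrophils (1.88 to 2.96 CPM against 4.76 to 11.8 CPM) and higher for bile duct (35.9 to 53.3 CPM against 18 to 26.8 CPM), erythroid cells (101 to 179 CPM against 80.7 to 93.5 CPM) and stellate cells and fibroblasts (173 to 238 CPM against 97.7 to 158 CPM). Hepatocyte markers were also higher without overlap (107614 to 129243 CPM against 75065 to 93940.4 CPM). The part of these markers was not tested.

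Whether p21 acted differently at the 2 stages was tested by the interaction of virus and stage. edgeR called 0 of the 41 genes, where 0.0% of all genes tested were called, and DESeq2 on all libraries and voom also called 0. Atf4 had the one unadjusted p under 0.05 (-0.76, SE 0.29, adjusted p = 1.0), where 3.09% of all genes tested had one. It was followed by Trib3 (1.82, SE 1.06), Herpud1 (0.61, SE 0.52), Xbp1 (-0.49, SE 0.44) and Derl3 (1.90, SE 2.21).

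**Figure D4:**
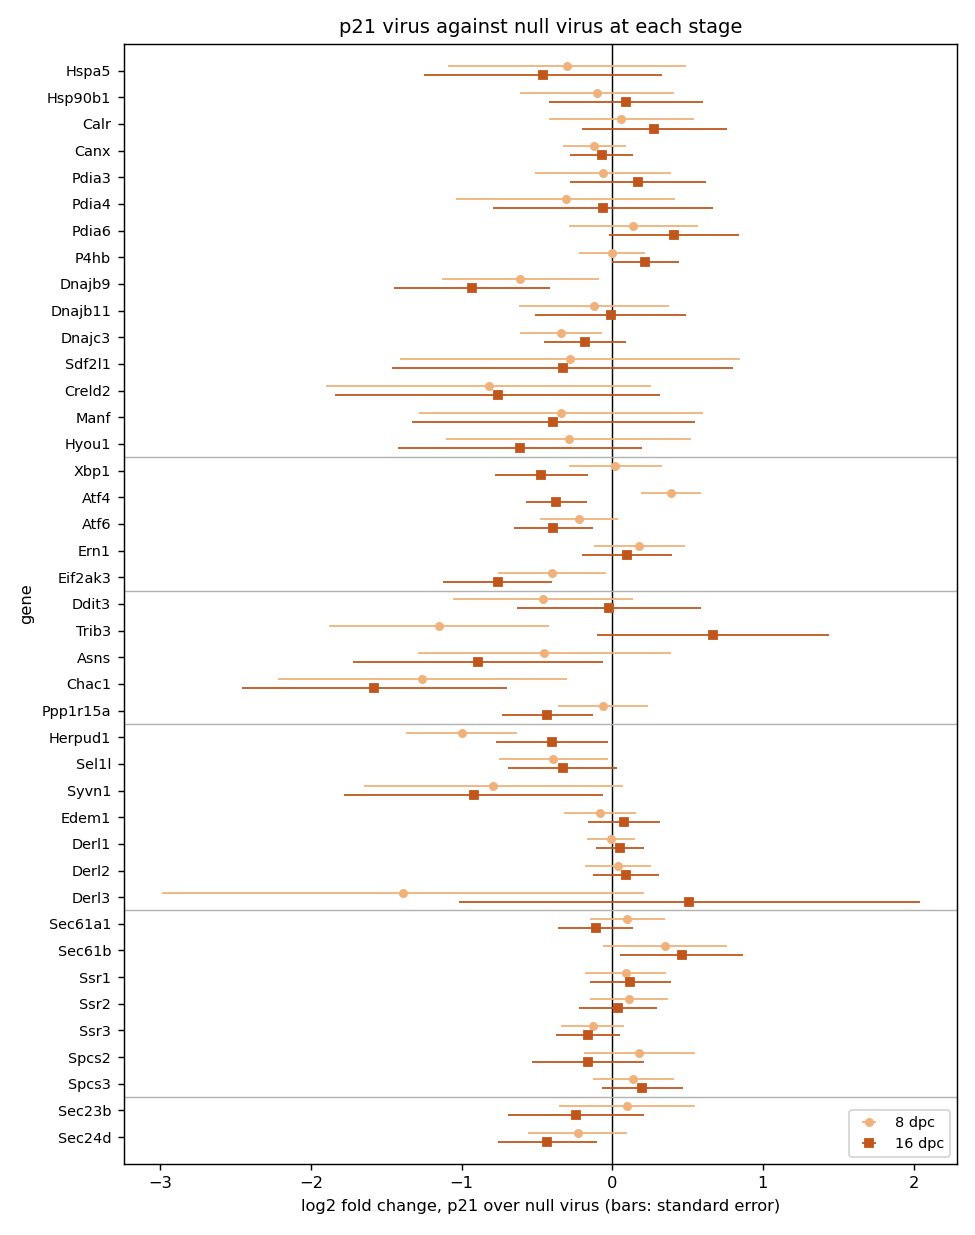
Log2 fold change of AAV8-p21 over AAV8-null mice for each of the 41 genes at 8 dpc (circles) and 16 dpc (squares), with standard errors. No gene passed the test at either stage, and Atf4 is above 0 at 8 dpc (0.39) and below 0 at 16 dpc (-0.37).

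AAV8-p21 livers at 16 dpc were also compared with NP AAV8-null livers, a contrast in which virus and pregnancy differ together and which shares its NP livers with the comparisons above. edgeR called 1 of the 41 genes (2.44%), where 3.81% of all genes tested were called. This was P4hb, at 2341, 2054 and 2954 CPM against 1630.0, 1146 and 1092 CPM in NP livers (0.93, SE 0.23, adjusted p = 0.0333). The call was lost without NP replicate 2 (adjusted p = 0.150) or 3 (0.148), without any 1 of the AAV8-p21 livers (0.0527 to 0.109), and with totals alone as the scale (0.174), and its adjusted p ran from 0.000844 to 0.174 over the alternatives. Pdia6, another disulfide isomerase, was at 469, 417 and 441 CPM against 335, 106 and 93.9 CPM (1.31, SE 0.44, adjusted p = 0.126). Dnajc3 (0.61, SE 0.27, adjusted p = 0.272), Sec61a1 (0.59, SE 0.25, adjusted p = 0.255) and Canx (0.48, SE 0.21, adjusted p = 0.289) also had an unadjusted p under 0.05, and Canx was at -0.08 with totals alone, where the median of the set was -0.17. The AAV8-p21 livers lay above the NP livers in 8 of the 41 genes, against 9.95% of all genes tested, and below them in 1 (Herpud1), against 10.3%. The median was 0.39, and without NP replicate 1 it was 0.86 with 4 genes called, where 3.88% of all genes were called. Without NP replicate 2 it was 0.24 and without NP replicate 3 it was 0.25. Marker sums of other cell types were higher without overlap than in NP livers for neutrophils (2.04 to 4.07 CPM against 0.304 to 1.66 CPM), erythroid cells (114 to 153 CPM against 45.4 to 90.2 CPM) and stellate cells and fibroblasts (216 to 236 CPM against 180.1 to 195 CPM). Their part was not tested.

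From 8 to 16 dpc in AAV8-p21 mice, edgeR called 0 of the 41 genes, where 3.32% of all genes tested were called. Herpud1 came closest, from 78.8, 149 and 245 CPM to 375, 449 and 362 CPM without overlap (1.33, SE 0.37, adjusted p = 0.0668). P4hb (0.68, SE 0.22, adjusted p = 0.127) and Dnajc3 (0.73, SE 0.27, adjusted p = 0.170) also had an unadjusted p under 0.05, where 16.4% of all genes tested had one. Sel1l (0.74, SE 0.37) and Pdia6 (0.76, SE 0.43) had the next smallest p. DESeq2 on all libraries called 2, Herpud1 and P4hb, where 6.16% of all genes were called, and on the compared groups alone 2, Herpud1 and Pdia6, where 6.6% were. voom called 1, Herpud1, where 14.9% were called. Without 8 dpc replicate 3, edgeR called 1, Herpud1, where 3.74% were called.

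**Figure D5:**
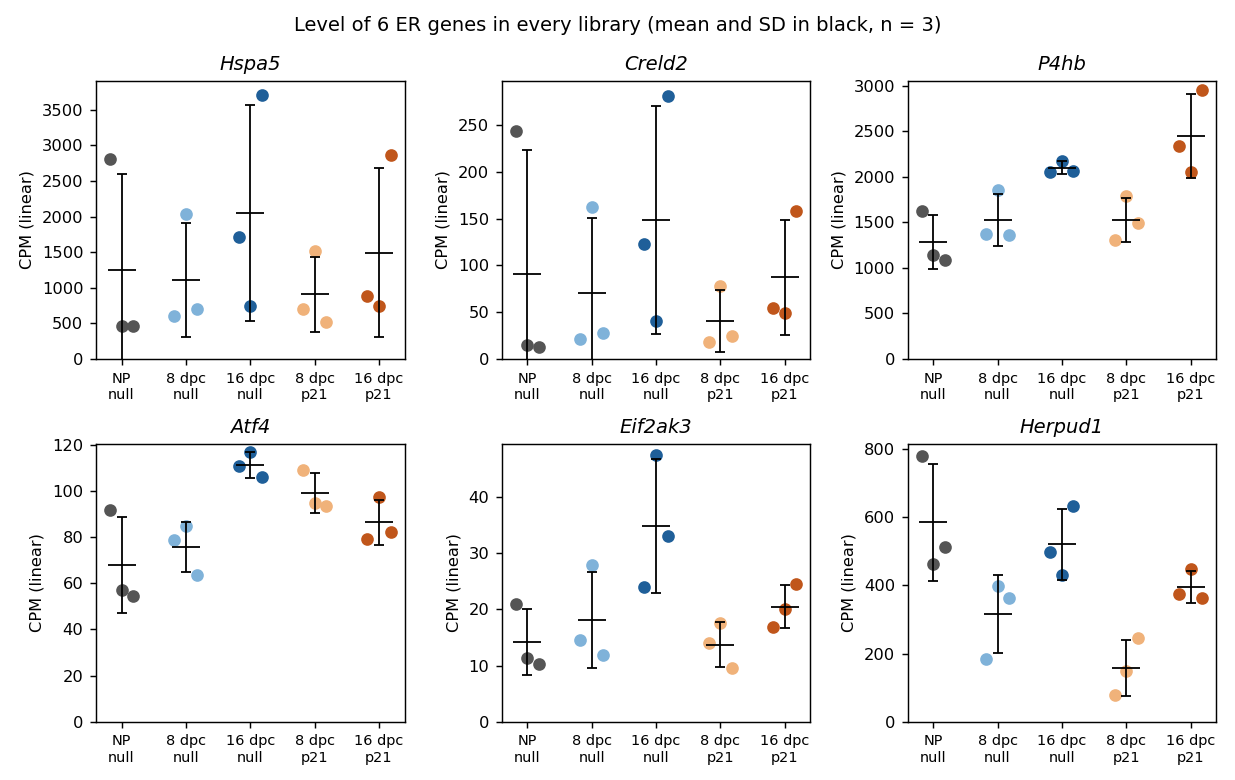
CPM of 6 genes in each of the 15 libraries, by group on the x axis, on linear y axes that start at 0. Points are single livers, and black bars give the mean and SD (n = 3), cut off at 0. In Hspa5 and Creld2 1 liver of each group stands above the others (up to 3710.4 CPM for Hspa5), whereas P4hb and Atf4 are tight, and Herpud1 is lowest in AAV8-p21 mice at 8 dpc.

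Lists of related genes put the set in context for 16 dpc over NP in AAV8-null mice, where edgeR called 6.52% of all genes tested, and the counts below are to be read against that share. Of 26 tested other genes of ER folding and glycosylation, 3 rose and 0 fell (median log2 fold change 0.34). They were Fkbp11, a prolyl isomerase of secretory cells (2.35, SE 0.45, adjusted p = 0.00649), Txndc11 (1.45, SE 0.32, adjusted p = 0.0148) and Stt3b, a catalytic subunit of the oligosaccharyltransferase (0.89, SE 0.20, adjusted p = 0.0178). Fkbp11 was at 2.66 to 6.85 CPM in NP livers and at 15.7 to 28.2 CPM at 16 dpc. Of 22 tested other degradation genes 2 rose, Sel1l3 (1.44, SE 0.34) and Erlec1, an ER lectin (0.72, SE 0.19). Of 22 tested other genes of COPII and ER export 1 rose, Sec13, a coat subunit (1.0, SE 0.24, adjusted p = 0.0232). None of 20 other genes of the translocon and signal recognition particle and none of 19 other stress sensors and regulators was called, with medians of 0.31 and 0.07.

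Of 27 tested other ATF4 and integrated stress response targets, 2 rose and 3 fell (median 0.41). Mthfd2, a mitochondrial folate enzyme (2.36, SE 0.31, adjusted p = 0.000525), and Cars, a cysteinyl-tRNA synthetase (2.06, SE 0.43, adjusted p = 0.011), rose. Vldlr, a lipoprotein receptor, fell from 23 to 23.9 CPM in NP livers to 2.14 to 3.74 CPM (-2.87, SE 0.29, adjusted p = 6.68e-05), and Cth, which makes cysteine (-1.54, SE 0.26), and Pck2 (-1.11, SE 0.26) fell too. Among 16 tested cytosolic chaperones none rose and Hspb1 fell (-3.33, SE 0.71), with a list median of -0.21. Of the 21 secreted plasma proteins, 13 rose and 1, Ttr, fell (median 1.23). Itih4 (3.56, SE 0.29, adjusted p = 6.64e-06), Alb (2.01, SE 0.25) and F2, the gene for prothrombin (1.52, SE 0.21), had the smallest adjusted p. In AAV8-p21 mice at 16 dpc, 11 of the 21 were higher than in NP livers and none lower (median 1.05), where 3.81% of all genes tested were called. Of 13 clock genes 0 were called at 16 dpc (median -0.95), and of 14 fasting and feeding genes 2 rose, Igfbp1 (3.64, SE 0.45) and Pdk4 (3.78, SE 0.79). Pdk4 was at 109.7, 159 and 1221 CPM in the AAV8-null livers at 16 dpc, in rising order, against 21.8 to 52.4 CPM in NP livers. The size of its change thus rests largely on 1 liver.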

How the data were processed

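RNA from whole liver of 15 mice in 5 groups of 3 was sequenced from stranded mRNA libraries. Per the submitters' notes, the authors used cutadapt 1.14 for trimming, HISAT2 2.1.0 for alignment (mm10) and then counted uniquely mapped reads per protein-coding gene with HTSeq 0.12.4, and the deposited table holds these raw counts. Whether the counting used strand is not given in the sources used here. Without strand, reads of Derl2, Manf, Pdia3, Pdia6, Ppp1r15a, Spcs3, Syvn1 and Ddit3 cannot be told apart from those of a gene on the opposite strand where their exons overlap. Manf also overlaps Rbm15b on its own strand.

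Libraries were matched to groups through labels and column names. The 3 columns of AAV8-p21 at 16 dpc do not all carry the numbers of the labels and are named a, b and c, in no order. edgeR 4.0.16 in R 4.3.3 was used with TMM factors, filterByExpr (minimum count 10), a single quasi-likelihood model (15 libraries, residual df 10, common BCV 0.277) and p-values adjusted by the Benjamini-Hochberg method over 12172 genes. The scripts were tested on simulated data with known changes. limma 3.58.1 and DESeq2 1.42.0 served as alternatives. Positions come from GENCODE M21, promoter sequences from RefSeq (GRCm38.p6).

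Members and lists were chosen with earlier results of these data known. Named are all called members, in each comparison the 5 members with the smallest p, Hspa5, Xbp1, Atf4 and Ddit3, and up to 3 called genes of each other list by smallest adjusted p. Members named beyond this rule for their spread or role were chosen after their values were seen. Promoter stretches were chosen for motif matches and not by the rule fixed for sequences, which would have shown the windows of Eif2ak3, Atf4, P4hb and Ppp1r15a. Each mouse gave 1 library, and p-values test differences between groups against the spread between mice. That spread was estimated in a single model over the 5 groups, with information shared between genes.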

Additional observations from a re-analysis of the deposited data

Results flagged for a closer look

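Atf4 is singled out because every AAV8-p21 liver lay above every AAV8-null liver at 8 dpc and every AAV8-p21 liver lay below every AAV8-null liver at 16 dpc. The p21 effect at 16 dpc minus that at 8 dpc was -0.76 on the log2 scale (edgeR, unadjusted p = 0.0187, adjusted p = 1.0), so the difference did not pass the correction over all genes. An unadjusted p under 0.05 was found for 3.09% of all genes tested in this interaction. The share of all genes that separate in opposite directions at the 2 stages was not counted. The difference for Atf4 lay between -0.65 and -0.85 when any 1 library of these 4 groups was left out.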

How the results depend on the processing

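For 16 dpc over NP in AAV8-null mice, 2 members were called. The number was 1 with a log2 fold change above 1 or below -1 required, 1 with total counts only (Trib3, lower, where 50.5% of all genes were called), 0 with the 20 most abundant genes left out, 1 with no filter, 0 with 10 counts in every library, 5 with DESeq2 on all libraries (9.28%), 7 with it on the compared groups alone (6 higher and 1 lower, 7.54%), 19 with voom (13.2%) and 1 with edgeR on the compared groups alone (Trib3, lower). It lay between 0 and 7 with 1 library left out. The replicate numbers do not pair the mice (same-numbered libraries correlated at 0.00728 on average in their deviations), and with the replicate block on 12 libraries 0 members were called, as in the same 12 libraries without it. The block left the number of calls at 0 in the 3 other comparisons it could be fitted to. For 16 dpc AAV8-p21 over NP, 1 member was called, against 0 with the fold threshold, 2 with DESeq2 on all libraries (where 6.07% of all genes were called), 17 with voom (16 higher and 1 lower, where 19.0% of all genes were called), 0 with edgeR on the compared groups alone and 0 to 4 with 1 library left out, while total counts only gave 1 other member (Herpud1, lower, where 36.2% of all genes were called). For 8 dpc over NP voom called 9 (15.2% of all genes). For 16 over 8 dpc in AAV8-null mice, total counts only gave 5, all lower, where 53.5% of all genes were called, and DESeq2 on the compared groups 1. For 16 over 8 dpc in AAV8-p21 mice, total counts only gave 3, all lower, where 35.5% of all genes were called, DESeq2 2 in both forms, voom 1 and leaving out 1 library 0 to 1.

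The median log2 fold change moved by more than the spread between libraries (0.49) only with total counts, to -0.11 for 16 dpc over NP, -0.26 for 16 over 8 dpc in AAV8-null mice, -0.17 for AAV8-p21 at 16 dpc over NP and -0.20 for 16 over 8 dpc in AAV8-p21 mice, and with 1 library left out for 16 dpc over NP (0.22 to 1.10). With 1 library left out it changed sign for 8 dpc over NP (-0.02 to 0.66), p21 at 8 dpc (-0.32 to 0.25), p21 at 16 dpc (-0.34 to 0.12) and the interaction (-0.24 to 0.31). Alternatives for the medians other than scaling and filtering were added after the data were seen. For single members the sign turned for Ddit3 at 16 dpc over NP with voom (0.37) and without NP replicate 1 (0.64, and -1.46 at the other end of the leave-one-out range), and for Hspa5 without 16 dpc replicate 3 (-0.02 to 2.17 over the libraries left out). For p21 at 16 dpc it turned for Hspa5 (0.29) and Ddit3 (1.01) without AAV8-null replicate 3, and for Ddit3 with total counts (0.04), 10 counts in every library (0.00) and without AAV8-p21 library a (0.13) or b (0.07). Over the libraries left out Hspa5 ran from -1.34 to 0.29 and Ddit3 from -0.39 to 1.01. It turned with total counts for Atf4 (-0.15) and Dnajc3 (-0.12) in 16 over 8 dpc, and for Canx (-0.08) in AAV8-p21 at 16 dpc over NP. In the interaction it turned for Derl3 without AAV8-null replicate 2 at 8 dpc (-0.24) and for Trib3 (-0.20) and Derl3 (-0.68) without AAV8-p21 library c, with ranges of -0.68 to 5.05 for Derl3 and -0.20 to 2.64 for Trib3. The cause of these changes was not tested. Of 757 results of single members under an alternative, 688 kept their direction and their side of the threshold. Most of these were of members not called in the main fit, so their number does not measure how stable the calls were. In 30 results a call of the main fit, of Eif2ak3, Atf4 or P4hb, was lost. With 3 mice a group, the wide spread of the chaperones limits what could be detected.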
